A study of Mus musculus with 11 samples.

Results

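Matrix turnover was followed through 9 of the 18269 genes in the deposited table of CPM (read counts scaled to the same total in each library): the metalloproteinases Mmp2 and Mmp14, the tissue inhibitors of metalloproteinases Timp1, Timp2, Timp3 and Timp4, and the lysyl oxidases Lox, Loxl1 and Loxl2. They were chosen by gene symbol, as a group with known functions and with earlier results of these data known, and all 9 symbols were found. RNA had been sequenced from the tibialis anterior (the main muscle at the front of the shin, built mostly of fast fibres) of C57BL/6 mice aged 21 to 24 months. The labels' protocol names an animal injury model without saying which muscles were injured or when. The groups were aged mice injected with serum of young mice ("young serum", 4 libraries), aged mice injected with young serum from which extracellular vesicles (EVs, membrane-bound particles released by cells) had been depleted ("EV-depleted serum", 3 libraries), and aged mice injected with saline (4 libraries). No young mice were analysed here, so every difference below is between muscles of aged mice. Whether the libraries stem from different animals is not in the labels, and the p-values below therefore measure library-to-library spread, part of which may be technical.

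Matrix metalloproteinases are secreted or membrane-anchored zinc enzymes that cut collagens and other matrix proteins, and the tissue inhibitors bind their active sites. Mmp2 is made as an inactive precursor, which Mmp14 activates at the cell surface in a complex that uses Timp2 as an adaptor, so Timp2 serves both as a cofactor and as an inhibitor. Lysyl oxidases act on the opposite side of turnover: they oxidise lysines of collagen and elastin, which then form the cross-links that make fibres stiff and resistant to proteases. In skeletal muscle most of these genes are known from the connective tissue between fibres, and they matter in repair and in the fibrosis of aged muscle.

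None of the 9 genes passed the threshold in any comparison. Of the 9, 8 reached the minimum level for testing (1 CPM in at least 3 libraries), and Timp1 did not. With limma on log2(CPM + 1) over 13187 genes, adjusted by Benjamini-Hochberg at 0.05, 0 of the 8 were called for young serum against saline, 0 for EV-depleted serum against saline and 0 for young against EV-depleted serum. The share called among all tested genes was also 0% in each of the 3 comparisons, so these counts equal the background. Without saline replicate 2, 251 genes were called for young serum against saline and 5 for EV-depleted serum against saline, none of them a member. The smallest adjusted p over all genes was 0.0767 for young serum against saline, 0.0684 for EV-depleted serum against saline and 0.99998 for young against EV-depleted serum, where it held for every member. At an unadjusted p under 0.05, 1 of the 8 members passed for young serum against saline (Timp3, higher), against 21.9% of all tested genes. For EV-depleted serum against saline 1 member passed (Loxl1, lower), against 12.1% of all genes, and for young against EV-depleted serum 0 members passed, against 2.23%. The groups of libraries did not overlap for 0 of 8 members between young serum and saline (12.2% of all genes), for 1 of 8 between EV-depleted serum and saline (Loxl1; 7.42% of all genes) and for 0 of 8 between young and EV-depleted serum (6.11%).

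The tissue was muscle by its markers: 12 genes of mature fibres summed to 195029 to 216839 CPM in young serum, 179903 to 189658 CPM in EV-depleted serum and 173706 to 221209 CPM in saline libraries. The step that 1 read adds to low CPM values put library depth at 36460000 to 42200000 reads. Saline replicate 4 stood apart. Its 10 adipocyte markers summed to 6178 CPM, against 250 to 630 CPM in the other 10 libraries, and its 16 markers of fibro-adipogenic progenitors (the muscle's connective tissue cells) summed to 5022 CPM, against 1161 to 2144 CPM. Pdgfra, a marker on the progenitor list, was at 19.3 CPM in saline replicate 4. It was at 22.1 CPM in EV-depleted replicate 4 and 18.7 CPM in young serum replicate 1. None of the markers of either list was at 0 in any library. In whole muscle, fewer cells of a type and less RNA per cell cannot be told apart.

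**Figure D1:**
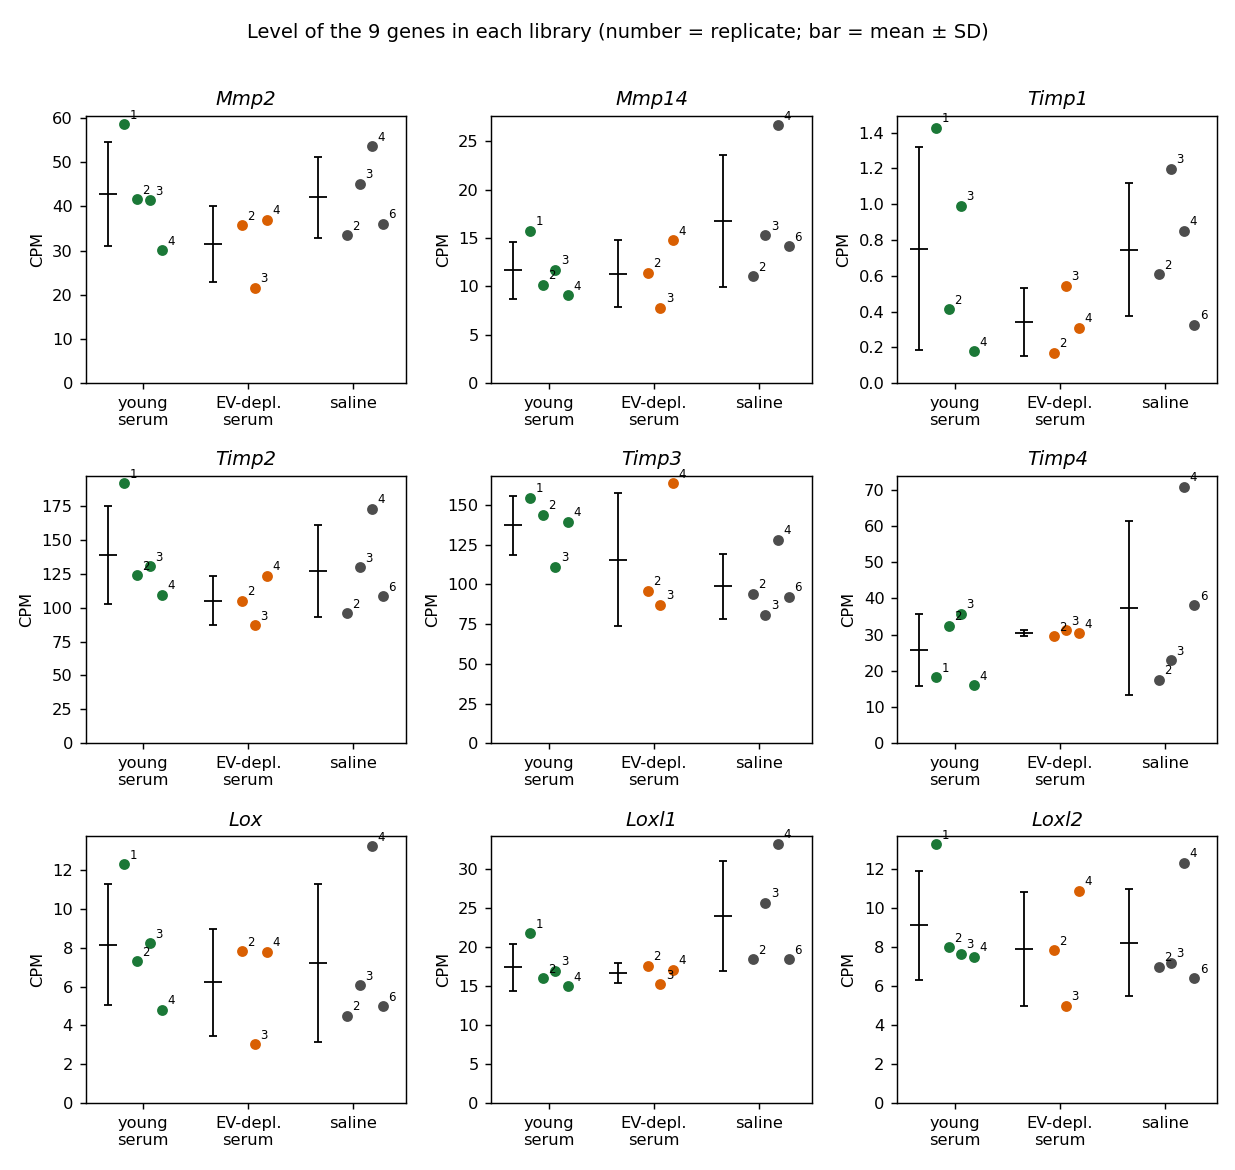
Each panel plots 1 gene, with CPM on the y axis and the 3 groups on the x axis; each point is a library, numbered by replicate, and the horizontal tick with its bar is the group mean ± SD. Saline replicate 4 is the highest library of all 11 for Mmp14, Timp4, Lox and Loxl1, young serum replicate 1 is the highest for Mmp2, Timp1, Timp2 and Loxl2, and the groups overlap in every panel but that of Loxl1, where the EV-depleted libraries (15.2 to 17.6 CPM) lie below saline (18.4 to 33.2 CPM).

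Levels of different genes were compared per kilobase of exonic sequence (GENCODE M21), in CPM per kb. The length joins the exons of all annotated transcripts, 7 for Mmp14 and 1 for Loxl1. It can exceed that of the transcripts present, which understates the level of genes with many transcripts. Timp2 was the most abundant in all 3 groups, at 35.6 ± 9.32 CPM per kb in young serum, 27.0 ± 4.68 in EV-depleted serum and 32.6 ± 8.68 in saline (SD, n = 4, 3 and 4). Timp3 followed at 16.8 ± 2.27, 14.2 ± 5.13 and 12.1 ± 2.503 CPM per kb in the same groups, and Mmp2 stood at 12.7 ± 3.49, 9.33 ± 2.54 and 12.5 ± 2.72. Timp3 and Mmp2 lay within 1 SD of each other in EV-depleted serum and in saline, where their order was exchanged. Loxl1 (5.28, 5.05 and 7.26 CPM per kb) and Timp4 (4.35, 5.15 and 6.34) came next and were within their spread of each other in all 3 groups. Mmp14 averaged 1.96, 1.90 and 2.82 CPM per kb in young serum, EV-depleted serum and saline. Lox (1.71, 1.30 and 1.505) and Loxl2 (1.69, 1.46 and 1.52) differed by less than their spread in each group. Timp1 was the lowest in each, at 0.847, 0.385 and 0.840 CPM per kb. The RNA of the inhibitors Timp2 and Timp3 was therefore more abundant per length than that of Mmp14 in every group.

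Reference sequence upstream of the start is given for 3 members, Mmp14 as a gene that varied together with Mmp2, Timp2 and the lysyl oxidases across libraries (below), and Timp3 and Timp4 as inhibitors with fewer such correlations. The windows are from RefSeq on GRCm38.p6, written 5′ to 3′ on the gene's own strand, with CG dinucleotides in capitals. The Mmp14 window is chr14:54431348-54431597 (plus strand), that of Timp3 chr10:86300162-86300371 (plus strand) and that of Timp4 chr6:115252206-115252455 (minus strand). Of the 9 members, 5 had a window in the table.
Mmp14: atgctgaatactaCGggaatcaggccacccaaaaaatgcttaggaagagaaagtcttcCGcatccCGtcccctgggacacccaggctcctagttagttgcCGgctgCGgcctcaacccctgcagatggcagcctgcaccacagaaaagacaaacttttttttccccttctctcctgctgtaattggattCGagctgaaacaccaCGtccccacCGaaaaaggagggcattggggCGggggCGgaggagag
Timp3: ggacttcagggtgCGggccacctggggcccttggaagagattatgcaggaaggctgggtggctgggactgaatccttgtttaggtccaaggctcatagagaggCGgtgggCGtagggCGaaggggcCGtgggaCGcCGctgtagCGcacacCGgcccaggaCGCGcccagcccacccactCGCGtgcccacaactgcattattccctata
Timp4: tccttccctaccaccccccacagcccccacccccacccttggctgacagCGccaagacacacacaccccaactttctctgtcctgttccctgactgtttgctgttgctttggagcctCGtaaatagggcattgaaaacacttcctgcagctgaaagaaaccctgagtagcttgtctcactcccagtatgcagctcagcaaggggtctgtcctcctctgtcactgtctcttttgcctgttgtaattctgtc
The Timp3 window held 13 CG dinucleotides in 210 bases and was 63.8% G and C, the Mmp14 window 10 in 250 bases at 55.2%, and the Timp4 window 2 in 250 bases at 53.6%. Windows of the same length had a median of 4 CG dinucleotides at 210 bases and of 6 at 250 bases. The motif GGGCGG, searched on both strands, was found 2 times in the Mmp14 window and 0 times in those of Timp3 and Timp4; 32.7% of all 32851 windows of 250 bases and 26.7% of those of 210 bases hold it. TGANTCA (6.75% of windows of 250 bases and 5.84% of those of 210) and TATAAA (12.4% and 9.56%), searched on both strands, were found 0 times in all 3 windows. These are descriptions of the letters only.

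Mmp2 (ENSMUSG00000031740.8, chr8:92827291-92853420, plus strand, mm10) encodes gelatinase A, which cuts denatured collagen and the type IV collagen of basement membranes. It was measured at 58.5, 41.6, 41.4 and 30.0 CPM in young serum replicates 1 to 4, at 35.8, 21.6 and 37.0 CPM in EV-depleted serum replicates 2 to 4, and at 33.5, 45.1, 53.6 and 36.1 CPM in saline replicates 2, 3, 4 and 6. Young serum and saline libraries covered nearly the same range, and EV-depleted replicate 3 was the lowest of all. The log2 difference of young serum from saline was 0.01 ± 0.23 (SE; limma adjusted p = 0.980), with a 95% interval of the fold from 0.713 to 1.43. That of EV-depleted serum from saline was -0.42 ± 0.25 (adjusted p = 0.453), and that of young from EV-depleted serum 0.44 ± 0.25.

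Mmp14 (ENSMUSG00000000957.11, chr14:54431612-54445364, plus strand) encodes a membrane-anchored collagenase that also activates the Mmp2 precursor. Its level was 15.8, 10.2, 11.7 and 9.07 CPM in young serum replicates 1 to 4, 11.4, 7.81 and 14.8 CPM in EV-depleted replicates 2 to 4, and 11.1, 15.3, 26.6 and 14.1 CPM in saline replicates 2, 3, 4 and 6. Saline replicate 4 was far above the rest, and the groups overlapped. Mean levels were 11.7 ± 2.94 CPM in young serum, 11.3 ± 3.48 in EV-depleted serum and 16.8 ± 6.81 in saline. The log2 differences were -0.45 ± 0.27 for young serum against saline (limma adjusted p = 0.323) and -0.50 ± 0.29 for EV-depleted serum against saline (adjusted p = 0.448). Without saline replicate 4, the library with high sums of adipocyte and progenitor markers, they were -0.21 and -0.26. Between young and EV-depleted serum the difference was 0.05 ± 0.29.

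Timp1 (ENSMUSG00000001131.11, chrX:20870166-20874735, plus strand), the inhibitor that is typically induced in inflamed and fibrotic tissue, was low throughout. The level was 1.43, 0.412, 0.990 and 0.179 CPM in young serum replicates 1 to 4, 0.170, 0.545 and 0.311 CPM in EV-depleted replicates 2 to 4, and 0.610, 1.20, 0.851 and 0.327 CPM in saline replicates 2, 3, 4 and 6. Libraries of the same injection differed several-fold, and the groups overlapped. As the gene was below the filter it was compared by exact two-sided permutation of the libraries, which gave p = 0.914 for young serum against saline, p = 0.114 for EV-depleted serum against saline and p = 0.343 for young against EV-depleted serum. The smallest p this test can give is 0.0286 for 4 against 4 libraries and 0.0571 for 4 against 3.

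Timp2 (ENSMUSG00000017466.9, chr11:118301069-118355740, minus strand) is the inhibitor that also serves Mmp14 as an adaptor. It was at 192, 124, 130 and 109 CPM in young serum replicates 1 to 4, at 105, 87.0 and 123 CPM in EV-depleted replicates 2 to 4, and at 95.9, 130, 173 and 109 CPM in saline replicates 2, 3, 4 and 6. Young serum replicate 1 and saline replicate 4 were high and EV-depleted replicate 3 was low, the same libraries as for Mmp2. The log2 difference was 0.13 ± 0.21 for young serum against saline (limma adjusted p = 0.723), -0.25 ± 0.23 for EV-depleted serum against saline (adjusted p = 0.603) and 0.38 ± 0.23 for young against EV-depleted serum.

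Timp3 (ENSMUSG00000020044.13, chr10:86300372-86349506, plus strand) encodes the inhibitor that stays bound to the matrix and that also inhibits several ADAM and ADAMTS proteases. It had the largest positive difference of the 8 tested members between young serum and saline. Its level was 154, 144, 111 and 139 CPM in young serum replicates 1 to 4, 96.0, 87.3 and 164 CPM in EV-depleted replicates 2 to 4, and 94.2, 80.8, 128 and 92.2 CPM in saline replicates 2, 3, 4 and 6. Of the young serum libraries, 3 lay above all 4 saline libraries and replicate 3 lay below saline replicate 4. The EV-depleted libraries were split, with 2 at the level of saline and replicate 4 above every other library. Young serum averaged 1.39-fold the level of saline (log2 difference 0.48 ± 0.20; 95% interval of the fold 1.03 to 1.90), which had an unadjusted p of 0.0361, an adjusted p of 0.208 by limma and an exact permutation p of 0.0571. Without saline replicate 4 the log2 difference was 0.61, and over all libraries left out 1 at a time it was 0.39 to 0.61. EV-depleted serum differed from saline by 0.19 ± 0.22 (limma adjusted p = 0.679) and young from EV-depleted serum by 0.29 ± 0.22. Without EV-depleted replicate 4, EV-depleted serum differed from saline by -0.09.

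Timp4 (ENSMUSG00000030317.8, chr6:115241892-115252205, minus strand) encodes the inhibitor with the most restricted expression, known from heart, muscle and fat. It was at 18.3, 32.5, 35.8 and 16.0 CPM in young serum replicates 1 to 4, at 29.5, 31.1 and 30.4 CPM in EV-depleted replicates 2 to 4, and at 17.5, 22.9, 70.8 and 38.2 CPM in saline replicates 2, 3, 4 and 6. The EV-depleted libraries lay close together (30.4 ± 0.805 CPM, n = 3), while saline libraries spread over a wide range (37.4 ± 24.0 CPM, n = 4) with replicate 4, the library with the high adipocyte markers, far above the others. The log2 difference was -0.41 ± 0.38 for young serum against saline (limma adjusted p = 0.529) and -0.09 ± 0.41 for EV-depleted serum against saline (adjusted p = 0.925). Without saline replicate 4 the first was -0.04 and the second 0.28. Young and EV-depleted serum differed by -0.31 ± 0.41.

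Lox (ENSMUSG00000024529.14, chr18:52516067-52529867, minus strand), the founding lysyl oxidase that cross-links fibrillar collagen and elastin, was at 12.3, 7.30, 8.21 and 4.80 CPM in young serum replicates 1 to 4, at 7.82, 3.04 and 7.79 CPM in EV-depleted replicates 2 to 4, and at 4.50, 6.06, 13.2 and 5.002 CPM in saline replicates 2, 3, 4 and 6. Young serum replicate 1 and saline replicate 4 were again the highest of their groups. The log2 difference was 0.21 ± 0.36 for young serum against saline (limma adjusted p = 0.747), -0.16 ± 0.39 for EV-depleted serum against saline (adjusted p = 0.854) and 0.37 ± 0.39 for young against EV-depleted serum. The interval of the young serum to saline fold, 0.672 to 1.99, was among the widest of the members. Without saline replicate 4 that log2 difference was 0.51, and without young serum replicate 1 it was 0.01.

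Loxl1 (ENSMUSG00000032334.10, chr9:58287738-58313186, minus strand) encodes the lysyl oxidase needed in mice for the upkeep of elastic fibres, and its mean was lower in both serum groups without passing the adjusted threshold. The level was 21.8, 16.0, 16.9 and 15.0 CPM in young serum replicates 1 to 4, 17.6, 15.2 and 17.1 CPM in EV-depleted replicates 2 to 4, and 18.5, 25.6, 33.2 and 18.4 CPM in saline replicates 2, 3, 4 and 6. All 3 EV-depleted libraries lay below all 4 saline libraries, as 4.03% of all tested genes did, and 3 of 4 young serum libraries did too. Mean levels were 17.4 ± 3.01 CPM in young serum, 16.6 ± 1.25 in EV-depleted serum and 23.9 ± 7.04 in saline. EV-depleted serum was at 0.727-fold the saline level (log2 difference -0.46 ± 0.20; 95% interval of the fold 0.535 to 0.989), with an unadjusted p of 0.0435, an adjusted p of 0.412 by limma and an exact permutation p of 0.0571, the smallest that 3 against 4 libraries allow. Young serum was at 0.753-fold (log2 difference -0.41 ± 0.19; interval 0.566 to 1.001), with an unadjusted p of 0.0509, an adjusted p of 0.229 by limma and an exact permutation p of 0.143. Both comparisons use the same 4 saline libraries. Without saline replicate 4 the log2 differences were -0.29 for EV-depleted serum and -0.24 for young serum. The part of that library's summed adipocyte and progenitor marker levels in the difference was not tested beyond this. Young and EV-depleted serum differed by 0.05 ± 0.20, with a 95% interval of the fold from 0.761 to 1.41.

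Loxl2 (ENSMUSG00000034205.16, chr14:69609068-69695834, plus strand), a lysyl oxidase that acts on the type IV collagen of basement membranes, was at 13.3, 8.02, 7.68 and 7.53 CPM in young serum replicates 1 to 4, at 7.84, 5.01 and 10.9 CPM in EV-depleted replicates 2 to 4, and at 7.003, 7.21, 12.3 and 6.41 CPM in saline replicates 2, 3, 4 and 6. In young serum and in saline 3 libraries lay close together and 1 stood above them. The log2 difference was 0.14 ± 0.26 for young serum against saline (limma adjusted p = 0.769), -0.07 ± 0.28 for EV-depleted serum against saline (adjusted p = 0.922) and 0.20 ± 0.28 for young against EV-depleted serum.

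Several members share their locus with other genes, and the sources used here do not give whether counting used strand, so reads of overlapping genes cannot be told apart. Timp1 lies inside Syn1, Timp3 inside Syn3 and Timp4 inside Syn2, each on the opposite strand. Syn3 shares 1733 exonic bases with Timp3 and was measured at 0.203 to 1.11 CPM, far below Timp3 in every library. Syn2 shares 90 exonic bases with Timp4 and was at 0.391 to 1.44 CPM. Loxl2 shares 301 exonic bases with the antisense gene Gm27177, whose level was of the same order as its own. Gm27177 was at 4.66, 5.24, 10.4 and 5.88 CPM in young serum replicates 1 to 4, at 7.67, 11.8 and 11.1 CPM in EV-depleted replicates 2 to 4, and at 10.3, 36.7, 13.8 and 35.9 CPM in saline replicates 2, 3, 4 and 6. Saline replicates 3 and 6 were the highest for Gm27177 and were not the highest for Loxl2. The log2 difference of Gm27177 was -1.599 ± 0.38 for young serum against saline (limma adjusted p = 0.180) and -0.99 ± 0.41 for EV-depleted serum against saline (adjusted p = 0.404), so it did not pass the threshold either.

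**Figure D2:**
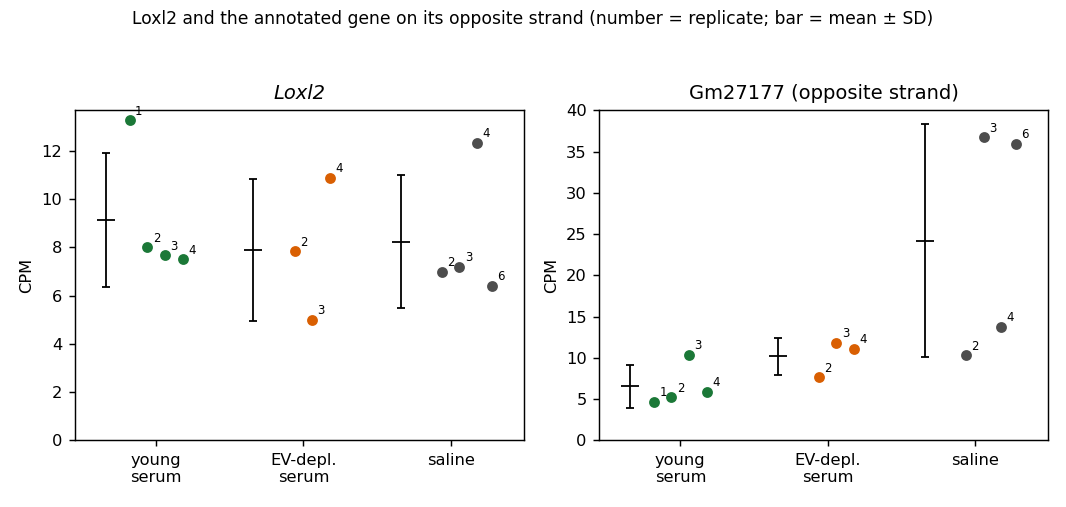
CPM of Loxl2 (left) and of Gm27177, annotated on the opposite strand (right), with the 3 groups on the x axis; each point is a library, numbered by replicate, and the tick with its bar is the group mean ± SD. Loxl2 is highest in young serum replicate 1 (13.3 CPM) and saline replicate 4 (12.3 CPM), and Gm27177 in saline replicates 3 and 6 (36.7 and 35.9 CPM).

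Over the list, the members' differences were small. For young serum against saline 5 of the 8 tested members were above 0 and 3 below, with a median log2 difference of 0.07, beside 47.5% above 0 and a median of -0.02 over all tested genes. Without young serum replicate 1, the highest of its group for most members, 2 were above 0 and 6 below, with a median of -0.09. For EV-depleted serum against saline 1 was above 0 and 7 below, with a median of -0.20, beside 49.6% above 0 and a median of -0.00 over all genes. Without saline replicate 4 that split was 4 above and 4 below, with a median of 0.02. For young against EV-depleted serum 7 were above 0 and 1 below, with a median of 0.25, beside 48.7% above 0 and a median of -0.00 over all genes. Without EV-depleted replicate 3, the lowest of its group for most members, 3 were above 0 and 5 below, with a median of -0.01. The comparisons share libraries, and the members vary together, so these counts are not 8 separate observations.

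**Figure D3:**
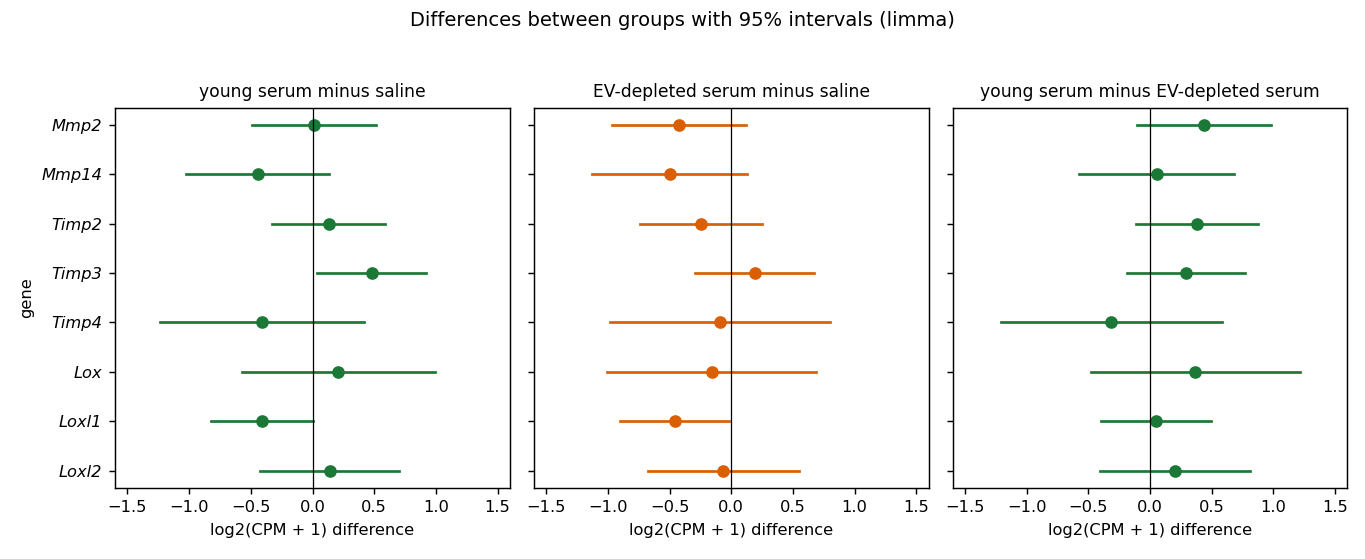
Log2(CPM + 1) differences (x axis) of the 8 tested members (y axis) for young serum minus saline, EV-depleted serum minus saline and young serum minus EV-depleted serum; points are limma estimates and lines their unadjusted 95% intervals. The intervals of Timp3 for young serum (fold 1.03 to 1.90) and of Loxl1 for EV-depleted serum (fold 0.535 to 0.989) leave out 0, and all others include it.

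The level of Mmp14 relative to Timp2 did not overlap between young serum and saline, whereas the levels of the genes themselves did. This ratio of CPM values is not a ratio of molecules, since the genes differ in length, and only its differences between libraries carry meaning. It was 0.0823, 0.0821, 0.0898 and 0.0829 in young serum replicates 1 to 4, 0.108, 0.0898 and 0.120 in EV-depleted replicates 2 to 4, and 0.116, 0.118, 0.154 and 0.130 in saline replicates 2, 3, 4 and 6. All young serum libraries lay below all saline libraries, and just below all EV-depleted libraries, of which the lowest equalled the highest young serum library to 3 digits; EV-depleted and saline libraries overlapped. The mean was 0.0843 ± 0.00368 in young serum, 0.106 ± 0.0150 in EV-depleted serum and 0.129 ± 0.0176 in saline. The log2 difference of the ratio was -0.61 for young serum against saline, and it was -0.66 to -0.52 with each library left out in turn. It was -0.29 for EV-depleted serum against saline and -0.32 for young against EV-depleted serum. Of all other tested genes, 7.81% also had a ratio to Timp2 that was lower in every young serum library than in every saline library, and 23.8% one that was lower in every young serum than in every EV-depleted library. No test was made of the ratio. It was chosen with earlier results of these data known, together with the ratios of Mmp2 to Timp2 and of Timp1 to Timp4 below.

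**Figure D4:**
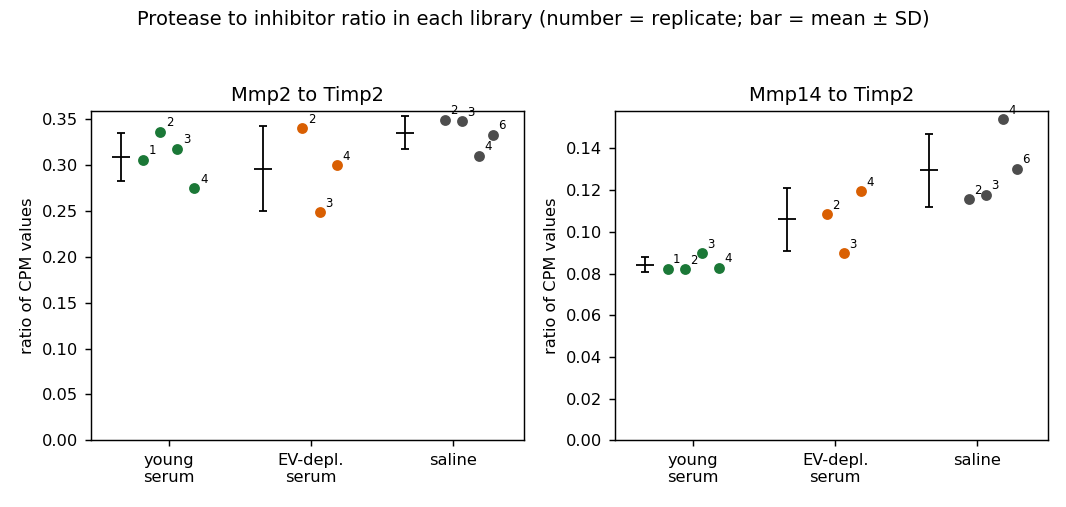
Ratio of CPM values (y axis) of Mmp2 to Timp2 (left) and of Mmp14 to Timp2 (right) by group (x axis); each point is a library, numbered by replicate, and the tick with its bar is the group mean ± SD. The groups overlap for Mmp2 to Timp2, while Mmp14 to Timp2 is 0.0821 to 0.0898 in young serum and 0.116 to 0.154 in saline.

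The ratio of Mmp2 to Timp2 had smaller differences between group means. It averaged 0.308 ± 0.0257 in young serum, 0.296 ± 0.0459 in EV-depleted serum and 0.335 ± 0.0181 in saline, and the groups overlapped in all 3 comparisons. The ratio of Timp1 to Timp4 spanned 0.0112 to 0.0782 in young serum, 0.00576 to 0.0175 in EV-depleted serum and 0.00856 to 0.0522 in saline, also with overlap.

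Across the 11 libraries most members varied together. Of the 36 pairs of members, 13 had a Pearson correlation of log2(CPM + 1) with a permutation p under 0.05 after adjustment over the 36. The share among pairs of all tested genes was not computed, so this count is not shown to be particular to the members. Mmp2 and Timp2 gave Pearson's r = 0.93 (permutation p = 2.0e-05, adjusted 0.00072) and Spearman's rho = 0.92 (permutation p = 0.0002, adjusted 0.0072), and r was 0.89 without the 2 libraries farthest from the median of Mmp2. For every pair the 2 libraries left out were those farthest from the median of its first-named gene, so they differ between pairs. Lox and Loxl2 gave r = 0.91 (permutation p = 5.0e-05, adjusted 0.0009) and rho = 0.86 (permutation p = 0.00131, adjusted 0.0206), with r = 0.83 without the 2 farthest. Mmp14 and Loxl1 gave r = 0.91 (permutation p = 0.0001, adjusted 0.0012) and rho = 0.85 (permutation p = 0.00172, adjusted 0.0206), with r = 0.77 without the 2 farthest. With the group means taken out, these 3 correlations were 0.92, 0.91 and 0.87, so they held among libraries of the same injection. The 15 pairs among Mmp2, Mmp14, Timp2, Lox, Loxl1 and Loxl2, a set chosen after the correlations were seen, had r from 0.55 to 0.93, and from 0.78 to 0.96 with the group means taken out. Leaving out the 2 farthest libraries, the lowest of them was 0.21 (Lox with Loxl1, adjusted permutation p = 0.0942 over all libraries), so that pair rests on those libraries. Mmp14 with Lox then gave 0.44, against 0.76 over all libraries, and Mmp14 with Loxl2 0.45, against 0.73, so these 2 also rest in part on them. Of the 15 pairs 12 passed the adjustment, and Loxl1 with Timp2, with Lox and with Loxl2 did not. The other inhibitors had fewer pairs past the adjustment over all libraries, but this split depended on the libraries used. Without the 2 farthest libraries, r was 0.78 for Mmp2 with Timp4, 0.77 for Timp2 with Timp4 and 0.71 for Mmp2 with Timp1. In these pairs saline replicate 4, the highest for Timp4, stayed in. For Timp4 with Loxl1, where saline replicate 4 was among those left out, r was -0.57, against 0.44 over all libraries. These values rest on different libraries and are not comparable with each other. With the group means taken out, Mmp14 with Timp3 gave 0.68, against 0.21. Timp3 passed with 1 of 8 members (Loxl2, r = 0.74, permutation p = 0.00776, adjusted 0.0254; rho = 0.82, permutation p = 0.00343, adjusted 0.0244; r = 0.57 without the 2 farthest), Timp4 with 0 of 8 (r from -0.02 to 0.54) and Timp1 with 0 of 8 (r from -0.05 to 0.65).

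**Figure D5:**
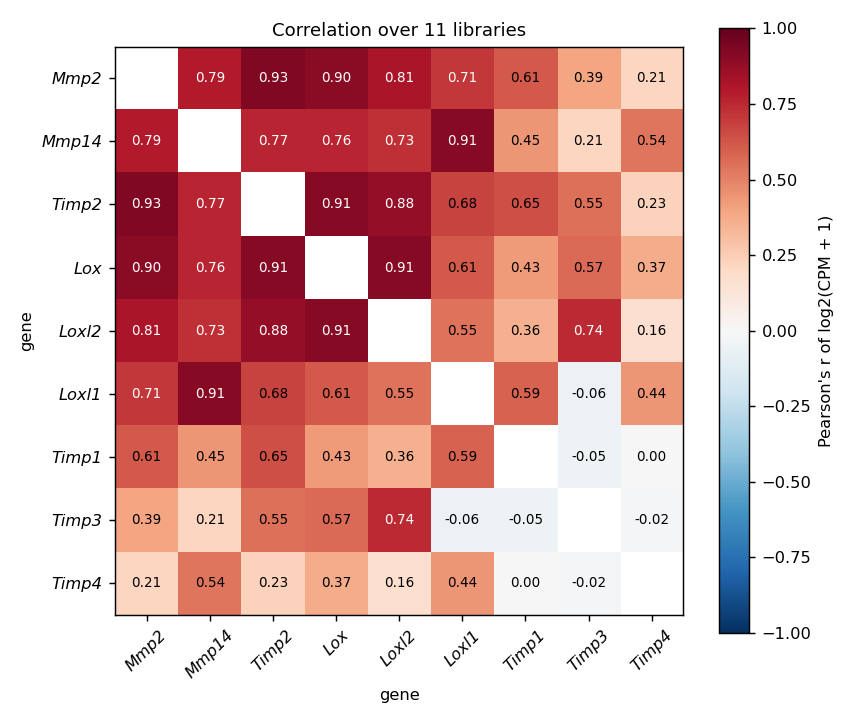
Pearson's r of log2(CPM + 1) over 11 libraries for each pair of the 9 genes (both axes), with the value written in each cell and the colour scale from -1 to 1. Mmp2, Mmp14, Timp2, Lox, Loxl2 and Loxl1 correlate at 0.55 to 0.93 with each other, and Timp1, Timp3 and Timp4 correlate less with most members.

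The genes whose pattern was most like each member's were taken as the 3 tested genes with the highest r over the 11 libraries, predicted genes left out. For Mmp2 they were Serping1, the inhibitor of complement C1 (r = 0.96), Tmem119 (0.96) and Gpnmb (0.94), and for Timp2 Tmem119 (0.95), Egfr (0.93) and Ace (0.91). Lox was closest to fibrillar collagen RNAs, Col3a1 (0.96) and Col1a2 (0.96), and to Dab2 (0.95). Timp4 was closest to Dgat2, an enzyme of triglyceride synthesis (0.95), Aldh2 (0.94) and Nelfe (0.94). Dgat2 spanned 16.7 to 309.9 CPM over the libraries, and its r with Timp4 was 0.94 without saline replicate 4. Mmp14 was closest to Nfam1 (0.98), Cmtm3 (0.97) and Slc9a9 (0.97), Loxl1 to Fam171a2 (0.96), Homer3 (0.95) and Plcd1 (0.95), Loxl2 to Chp2 (0.97), Nhlrc3 (0.96) and Myof (0.96), Timp3 to Utp14b (0.95), Zfp944 (0.95) and Pms2 (0.95), and Timp1 to Pqlc2 (0.90), Napa (0.82) and Maged2 (0.81). With 11 libraries and 13187 genes, high values are found for any gene, and these are descriptions.

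Of 26 genes that encode proteins on which the members act (collagens, elastic fibre proteins and matrix glycoproteins), 0 passed the adjusted threshold in any comparison by limma. For young serum against saline 13 were above 0 and 13 below (median 0.02), for EV-depleted serum against saline 6 and 20 (median -0.18), and for young against EV-depleted serum 23 and 3 (median 0.21). At an unadjusted p under 0.05 the counts were 3, 1 and 0, beside 21.9%, 12.1% and 2.23% of all tested genes. Above 0 were 47.5%, 49.6% and 48.7% of all tested genes. Fmod, a collagen-binding proteoglycan known to modulate collagen cross-linking, is also among the tendon markers given below. It averaged 98.5 ± 28.5 CPM in young serum and 54.4 ± 16.3 CPM in saline (log2 difference 0.84 ± 0.28, limma adjusted p = 0.180). Efemp2, the fibulin that brings Lox to elastin, averaged 5.12 ± 0.531 CPM in EV-depleted serum and 7.57 ± 1.20 CPM in saline (-0.48 ± 0.17, adjusted p = 0.404), and 5.34 ± 1.07 CPM in young serum (-0.44 ± 0.16 against saline, adjusted p = 0.182). The collagen Col1a1 averaged 94.5 ± 33.3 CPM in young serum, 66.8 ± 28.003 in EV-depleted serum and 74.0 ± 37.9 in saline, and elastin (Eln) 17.7 ± 3.69, 14.7 ± 6.53 and 22.9 ± 13.6 CPM, with overlap in each comparison.

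Among 15 other metalloproteinases listed, 10 were in the table and 8 were tested. For young serum against saline 2 were above 0 and 6 below. For EV-depleted serum against saline these were 1 and 7, and for young against EV-depleted serum 8 and 0. Of all tested genes 47.5%, 49.6% and 48.7% were above 0. None of the 8 passed the adjusted threshold, and 0 had an unadjusted p under 0.05. Mmp9, gelatinase B of leukocytes, averaged 1.30 ± 0.452 CPM in EV-depleted serum and 4.77 ± 5.08 CPM in saline (log2 difference -1.02 ± 0.47, limma adjusted p = 0.413). All 3 EV-depleted libraries (0.778 to 1.61 CPM) lay below all saline libraries (1.71 to 12.3 CPM), by a narrow margin near the filter level. For 4.03% of all tested genes the EV-depleted libraries also lay below all saline libraries. Of 17 ADAM and ADAMTS proteases, the family that Timp3 inhibits beyond the metalloproteinases, 13 were tested and 0 passed. At an unadjusted p under 0.05, 2 were higher for young serum against saline and 3 for EV-depleted serum against saline. Of all tested genes 21.9% and 12.1% had such a p, in either direction. Adam9, a membrane-bound sheddase, averaged 78.5 ± 9.97 CPM in young serum, 75.4 ± 18.9 in EV-depleted serum and 49.3 ± 16.1 in saline. Its log2 difference was 0.71 ± 0.23 for young serum against saline (limma adjusted p = 0.180) and 0.64 ± 0.24 for EV-depleted serum against saline (adjusted p = 0.404). Adamts1, which cuts proteoglycans, averaged 29.0 ± 4.99 CPM in young serum, 31.0 ± 4.85 in EV-depleted serum and 21.0 ± 5.55 in saline, with log2 differences of 0.47 ± 0.20 (adjusted p = 0.208) and 0.57 ± 0.21 (adjusted p = 0.404) from saline.

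Other matrix proteases and their regulators had mostly negative differences from saline: of 15 tested, 2 were above 0 and 13 below both for young serum and for EV-depleted serum against saline, with medians of -0.19 and -0.30. None passed the adjusted threshold by limma, and 5 and 3 had an unadjusted p under 0.05, all lower. Of all tested genes 21.9% and 12.1% had such a p, in either direction, and 47.5% and 49.6% were above 0. Bsg, which encodes the surface protein basigin, known as an inducer of metalloproteinases, averaged 513 ± 44.2 CPM in young serum, 491 ± 84.5 in EV-depleted serum and 680 ± 58.9 in saline. All young serum and all EV-depleted libraries lay below all saline libraries. These groups did not overlap, in either direction, for 12.2% and 7.42% of all tested genes. The log2 differences of Bsg were -0.41 ± 0.12 (limma adjusted p = 0.180) and -0.48 ± 0.13 (adjusted p = 0.350). Plau, the urokinase that activates plasminogen, averaged 17.0 ± 2.16 CPM in young serum, 16.6 ± 3.83 in EV-depleted serum and 25.04 ± 4.23 in saline (log2 differences -0.53 ± 0.17 and -0.57 ± 0.18, adjusted p = 0.180 and 0.391). Between young and EV-depleted serum 9 of the 15 were above 0 and 6 below, beside 48.7% of all tested genes above 0.

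Among 18 tested genes of collagen processing and cross-linking other than the members, 11 were above 0 and 7 below for young serum against saline. For EV-depleted serum against saline these were 7 and 11, and for young against EV-depleted serum 10 and 8. Of all tested genes 47.5%, 49.6% and 48.7% were above 0. None of the 18 passed the threshold. At an unadjusted p under 0.05 the counts were 1, 3 and 0, beside 21.9%, 12.1% and 2.23% of all tested genes. P3h2, a prolyl hydroxylase of basement membrane collagen, averaged 3.58 ± 0.511 CPM in EV-depleted serum and 1.72 ± 0.561 CPM in saline (log2 difference 0.77 ± 0.20, limma adjusted p = 0.333), and 2.48 ± 0.573 CPM in young serum. Pcolce, the enhancer of procollagen processing, averaged 21.8 ± 4.28 CPM in EV-depleted serum and 30.8 ± 5.70 CPM in saline (-0.48 ± 0.21, adjusted p = 0.411). Of 15 genes of transforming growth factor beta signalling, which is known to induce Timp1 and Lox in many cells, 13 were above 0 and 2 below for young serum against saline, and 12 and 3 for EV-depleted serum against saline, with medians of 0.28 and 0.25; 11 and 4 were so for young against EV-depleted serum. None passed the adjusted threshold by limma, and 5, 4 and 0 had an unadjusted p under 0.05, beside 21.9%, 12.1% and 2.23% of all tested genes. Of the 5, 4 were higher and 1 lower, and of the 4, 3 were higher and 1 lower. Smad4, the shared mediator of the pathway, averaged 47.9 ± 4.29 CPM in young serum, 42.7 ± 6.69 in EV-depleted serum and 30.1 ± 6.55 in saline, with all young serum and all EV-depleted libraries above all saline libraries. These groups did not overlap, in either direction, for 12.2% and 7.42% of all tested genes. The log2 differences of Smad4 from saline were 0.67 ± 0.16 (limma adjusted p = 0.180) and 0.50 ± 0.17 (adjusted p = 0.391). The ligand gene Tgfb2 averaged 30.8 ± 3.73 CPM in young serum and 22.9 ± 1.51 CPM in saline (0.41 ± 0.14, adjusted p = 0.180), and Tgfb3 48.0 ± 3.10 CPM in EV-depleted serum and 35.4 ± 3.82 CPM in saline (0.43 ± 0.11, adjusted p = 0.342). Ccn2 went the other way between the sera, at 13.9 ± 0.561 CPM in young and 22.1 ± 6.28 CPM in EV-depleted serum (-0.59 ± 0.30). All young serum libraries lay below all EV-depleted libraries for it. Those groups did not overlap, in either direction, for 6.11% of all tested genes.

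Markers of the cells that can supply these RNAs are given here by their counts, with 0 past the adjusted threshold in each list by limma. Their part in the members' differences was not tested. Of all tested genes, 47.5% were above 0 for young serum against saline, 49.6% for EV-depleted serum against saline and 48.7% for young against EV-depleted serum. At an unadjusted p under 0.05 were 21.9%, 12.1% and 2.23% of all tested genes. Of 16 fibro-adipogenic progenitor markers, 3 were above 0 and 13 below for young serum and likewise for EV-depleted serum against saline, with 1 and 2 at an unadjusted p under 0.05. Their summed level was 1161 to 2040 CPM in young serum, 1317 to 2023 in EV-depleted serum and 1411 to 5022 in saline. Pdgfra, the receptor that defines these cells, averaged 14.1 ± 3.41 CPM in young serum, 14.3 ± 7.21 in EV-depleted serum and 14.7 ± 3.31 in saline. Tendon markers were above 0 in 8 of 9 tested genes for young serum and 7 of 9 for EV-depleted serum against saline (5 and 0 at an unadjusted p under 0.05). They summed to 169.8 to 290.3 CPM in young serum, 151.7 to 223 in EV-depleted serum and 94.7 to 217 in saline. Macrophage markers were below 0 in 11 of 11 for both (6 and 5 at an unadjusted p under 0.05), and summed to 75.5 to 195 CPM in young serum, 106 to 153 in EV-depleted serum and 168 to 389.7 in saline. Adipocyte markers were below 0 in 9 of 9 for both (1 and 0 at an unadjusted p under 0.05), at 249.7 to 503 CPM in young serum, 283 to 526 in EV-depleted serum and 379 to 6178 in saline. Between young and EV-depleted serum, 12 of 16 progenitor, 7 of 9 tendon, 7 of 11 macrophage and 4 of 9 adipocyte markers were above 0. None of these 4 lists had a gene at 0 in any library.

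For the remaining marker lists, young serum against saline gave 4 of 12 genes above 0 for endothelial cells, 4 of 10 for mural and smooth muscle cells, 4 of 8 for satellite cells, 3 of 7 for regenerating fibres, 0 of 9 for Schwann cells and 8 of 12 for mature fibres, with 4, 1, 2, 2, 0 and 4 at an unadjusted p under 0.05. For EV-depleted serum against saline the same lists had 5, 3, 3, 3, 6 and 6 genes above 0, with 1, 0, 0, 1, 0 and 4 at an unadjusted p under 0.05. For young against EV-depleted serum they had 3, 7, 4, 3, 0 and 7 above 0. Of all tested genes 47.5%, 49.6% and 48.7% were above 0 in these 3 comparisons. In the first 2 comparisons 21.9% and 12.1% of all tested genes had an unadjusted p under 0.05.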

How the data were processed

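RNA-seq of 11 muscle libraries was analysed from the deposited tables. The authors had scaled each library to the same total of CPM over the genes in the table and added an offset of 0.0001, as read from the deposited values. The deposited TPM values take genomic span, introns included, as the length. They sum to the same total of 288820 in each library, so they are not CPM divided by span alone. They were used only as an alternative. FastQC, STAR, DESeq2 and mm10 appear in the submitters' processing notes, with no version or order, and the strand setting of the counting is not stated there. Only 75.6% to 79.0% of low CPM values came out as whole reads (within 0.1 reads), too few to rebuild counts, so no count model was fitted.

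A filter of 1 CPM or more in 3 or more libraries kept 13187 genes and removed 5082. The test scale was log2(CPM + 1), with a pseudocount of 1 that understates the folds of low genes. All libraries entered 1 limma model of 3 groups (version 3.58.1, R 4.3.3) with eBayes and a variance trend. Tests were two-sided, adjusted by Benjamini-Hochberg at 0.05. The groups shared 1 estimate of spread per gene. The median SD of log2(CPM + 1) was 0.149 in young serum, 0.223 in EV-depleted serum and 0.305 in saline. With young and EV-depleted serum fitted alone, 634 genes had an unadjusted p under 0.05, against 294 in the main fit. Single genes were also compared by exact permutation of libraries, and correlations by 100000 permutations, in Python 3.11.15. The fit was tested on simulated data.

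The members, lists and ratios were chosen with earlier results of these data known. All members were named, and from each list only genes among the 2 with the smallest unadjusted p in a comparison; Pdgfra, Col1a1, Eln and Gm27177 stand outside that rule. The labels state no pairing of libraries by replicate number, and the main fit used none. Alternatives were other pseudocounts, filters and scalings, array weights, no variance trend, 2 groups alone, a replicate block, TPM, and libraries left out.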

Additional observations from a re-analysis of the deposited data

Results flagged for a closer look

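Of 18 sets of 4 libraries (9 genes in young serum and in saline), 2 had 1 library far from the other 3; chance gives about 1 in 20. Loxl2 in young serum replicate 1 was at 13.3 CPM, and its gap to the next library took up 0.915 of the group's range. Loxl2 in saline replicate 4 was at 12.3 CPM, with a gap of 0.865 of the range. Both libraries were also the highest of their groups for Mmp2, Mmp14, Timp2, Timp3, Lox and Loxl1, where the gap did not reach the limit of 0.829 for 4 libraries.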

How the results depend on the processing

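The count of genes called was 0 in all 3 comparisons and stayed 0 under other pseudocounts, filters and scalings, without a variance trend, in the fit of 2 groups alone and on TPM. With array weights, whose estimation did not converge, it was 3441 for young serum against saline, 1794 for EV-depleted serum against saline and 24 for young against EV-depleted serum. With the replicate block the count was 6 for EV-depleted serum against saline. With the group means taken out, same-numbered libraries correlated at -0.28 to 0.30 over 9 pairs, of which 4 were over 0.1. With 3 or 4 libraries per group these correlations cannot decide whether the numbers pair libraries, and the labels state no pairing. Without both saline 4 and 6 it was 2 for EV-depleted serum. Leaving out 1 library gave 0 to 251 genes for young serum against saline (251 without saline replicate 2, 1 without saline replicate 6), 0 to 5 for EV-depleted serum against saline (5 without saline replicate 2, 2 without saline replicate 6, 1 each without saline replicate 4 and EV-depleted replicate 4) and 0 to 0 for young against EV-depleted serum. The causes were not tested.

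Among single members, array weights called Timp3 (0.67, adjusted p = 0.00917) and Loxl1 (-0.50, 0.0188) for young serum against saline and Loxl1 (-0.47, 0.0430) for EV-depleted serum; saline replicate 3 then weighed 3.32 and replicate 4 0.208. Over the other alternatives the adjusted p was 0.127 to 0.499 for Timp3, and 0.111 to 0.510 (young serum) and 0.169 to 0.772 (EV-depleted serum) for Loxl1. Sign changes with array weights were Mmp2 (-0.061) and Timp4 (0.073) for young serum against saline, Timp4 (0.29), Lox (0.20) and Loxl2 (0.056) for EV-depleted serum against saline, and Loxl1 (-0.024) for young against EV-depleted serum. With the replicate block they were Mmp2 (-0.21), Timp2 (-0.095), Lox (-0.10) and Loxl2 (-0.13) for young serum against saline, and Mmp14 (-0.090) and Loxl1 (-0.056) for young against EV-depleted serum. Without saline 4 and 6, Timp4 was 0.26 for young serum against saline, and Timp4 (0.57), Lox (0.12) and Loxl2 (0.082) changed sign for EV-depleted serum. Leaving out 1 library gave -0.15 to 0.17 for Mmp2, -0.033 to 0.29 for Timp2 and -0.039 to 0.33 for Loxl2 (young serum against saline); -0.088 to 0.36 for Timp3, -0.38 to 0.28 for Timp4, -0.35 to 0.22 for Lox and -0.30 to 0.19 for Loxl2 (EV-depleted serum against saline); and -0.17 to 0.25 for Mmp14, -0.0072 to 0.57 for Lox, -0.056 to 0.12 for Loxl1 and -0.054 to 0.44 for Loxl2 (young against EV-depleted serum). The members' medians changed sign with 1 library left out in all 3 comparisons: they ranged from -0.093 to 0.21 for young serum against saline, from -0.37 to 0.020 for EV-depleted serum against saline and from -0.0077 to 0.47 for young against EV-depleted serum. With the replicate block the first was -0.17, with 1 member above 0 and 7 below. The ratio of Mmp14 to Timp2 kept its sign with each library left out; those of Mmp2 to Timp2 between young and EV-depleted serum (-0.053 to 0.17) and of Timp1 to Timp4 between young serum and saline (-0.40 to 0.62) did not. Timp1, the lowest member at 0.170 to 1.43 CPM, is the one that depth limits most.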
